A study of Mus musculus with 16 samples.

Results

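The 7 genes described lie outside the segment duplicated in Dp16 mice and were followed across 16 libraries of mouse cortex: nonagouti (symbol a), Selenov, Emb, Myoc, Cbs, Tbxas1 and the long noncoding RNA gene Gm49041. They were taken by symbol, 7 of the 55385 genes in the deposited tables. They were chosen by measured values, the differences between Dp16-carrying and other libraries, so those differences are given here as a description and not as a test. All 7 passed the filter on low counts.

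The libraries came from brain cortex of mice aged 9 months, in 4 groups of 4, each with 2 females and 2 males and none treated: 5xFAD-Dp16, Dp16, 5xFAD and wild-type C57BL/6J. In Dp16 mice the distal end of chromosome 16, a stretch orthologous to much of human chromosome 21, is duplicated, which makes them a model of trisomy 21. 5xFAD mice carry mutant human transgenes of familial Alzheimer's disease, which include APP, driven by the neuronal Thy1 promoter, and form amyloid plaques. 5xFAD-Dp16 mice carry both. Each genotype can thus be read on 2 backgrounds, Dp16 with or lacking 5xFAD and 5xFAD with or lacking Dp16.

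The 7 genes share no pathway. Nonagouti encodes the agouti signalling protein, a secreted ligand that blocks melanocortin receptors and directs hair pigment, and C57BL/6J mice carry the nonagouti allele, in which its expression is disrupted. Myoc encodes myocilin, a secreted glycoprotein with an olfactomedin domain that is known from glaucoma. Cbs encodes cystathionine beta-synthase, which commits homocysteine to transsulfuration and in brain is found mostly in astrocytes; the human gene lies on chromosome 21, whereas the mouse gene lies on chromosome 17 and so outside the Dp16 segment. Selenov encodes selenoprotein V, a thioredoxin-like selenoprotein known mainly from testis. Tbxas1 encodes thromboxane A synthase, which turns prostaglandin H into thromboxane and in brain is expressed by microglia and macrophages. Emb encodes embigin, a membrane glycoprotein of the basigin family that accompanies monocarboxylate transporters. Gm49041 has no known product.

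On GRCm38, nonagouti (ENSMUSG00000027596) lies at chr2:154791402-155051012 on the plus strand and overlaps Raly and Eif2s2. Selenov (ENSMUSG00000046750) lies at chr7:28284652-28291186 on the minus strand, Myoc (ENSMUSG00000026697) at chr1:162639155-162649693 on the plus strand and Cbs (ENSMUSG00000024039) at chr17:31608894-31637238 on the minus strand. Emb (ENSMUSG00000021728), at chr13:117208536-117274415 on the plus strand, overlaps Gm17509. Tbxas1 (ENSMUSG00000029925), at chr6:38875404-39084585 on the plus strand, overlaps Hipk2. Gm49041 (ENSMUSG00000115026), at chr6:39207068-39207611 on the plus strand, is annotated as a noncoding RNA of a bidirectional promoter and starts beside Kdm7a, which runs the other way at chr6:39136623-39206789. Parp12, 4930599N23Rik and Kdm7a lie between Tbxas1 and Gm49041. Whether counting used strand is not stated, so counts of reads in the stretches that overlap a gene on the other strand are uncertain, and strand would not separate nonagouti from Raly, which lies on the same strand.

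The promoters of the 4 genes with the largest pooled Dp16 difference among the 7, in either direction, are shown so that their base composition can be compared. They are RefSeq windows on GRCm38.p6 of 300 bases, from 250 before to 50 after the annotated start, written 5′ to 3′ on the gene's strand. That of nonagouti lies well inside the gene span given above and not at its beginning. The counts do not tell which start the counted transcripts used. Capitals mark 3 motifs searched on both strands, the TATA element TATAAA, the CCAAT box and the GC box GGGCGG, each also as its reverse complement, and no matches of different motifs overlap in these 4 windows.
nonagouti, chr2:155013320-155013619, plus strand: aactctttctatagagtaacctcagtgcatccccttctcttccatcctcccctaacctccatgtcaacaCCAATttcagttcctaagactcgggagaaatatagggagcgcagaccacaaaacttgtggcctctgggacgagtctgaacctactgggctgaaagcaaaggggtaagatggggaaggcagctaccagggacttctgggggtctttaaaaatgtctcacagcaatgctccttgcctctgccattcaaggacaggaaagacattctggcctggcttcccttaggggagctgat
Selenov, chr7:28291137-28291436, minus strand: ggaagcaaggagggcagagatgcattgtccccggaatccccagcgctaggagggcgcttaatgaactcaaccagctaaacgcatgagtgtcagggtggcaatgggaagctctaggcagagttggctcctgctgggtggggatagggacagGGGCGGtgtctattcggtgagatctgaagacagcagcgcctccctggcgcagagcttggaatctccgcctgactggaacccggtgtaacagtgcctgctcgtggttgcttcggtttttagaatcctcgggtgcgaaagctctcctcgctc
Cbs, chr17:31637156-31637455, minus strand: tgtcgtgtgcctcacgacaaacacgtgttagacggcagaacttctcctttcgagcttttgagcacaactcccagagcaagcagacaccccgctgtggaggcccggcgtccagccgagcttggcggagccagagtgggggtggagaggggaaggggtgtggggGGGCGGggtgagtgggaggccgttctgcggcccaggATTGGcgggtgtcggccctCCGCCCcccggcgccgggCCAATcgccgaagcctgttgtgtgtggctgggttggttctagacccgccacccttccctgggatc
Myoc, chr1:162638900-162639199, plus strand: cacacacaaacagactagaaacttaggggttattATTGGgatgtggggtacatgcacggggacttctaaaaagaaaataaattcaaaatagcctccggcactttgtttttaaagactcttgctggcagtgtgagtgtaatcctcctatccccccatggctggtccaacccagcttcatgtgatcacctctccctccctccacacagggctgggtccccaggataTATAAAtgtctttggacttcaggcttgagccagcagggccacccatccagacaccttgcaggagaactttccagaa
The windows share no common layout. That of Cbs is rich in CpG, with 22 CpG against a median of 7 over 32851 RefSeq promoters, and holds 2 CCAAT and 2 GGGCGG matches. Selenov has 15 CpG and 1 GGGCGG match, nonagouti 3 CpG and 1 CCAAT match, and Myoc 2 CpG with 1 TATAAA and 1 CCAAT match. Of all the windows, 13.6% hold TATAAA, 37.4% CCAAT and 35.7% GGGCGG, so each of these matches is common. Emb and Tbxas1 also have an entry, with 14 and 4 CpG, and Gm49041 was not matched.

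Depth and labels were checked before the genes were read. Totals were 16874481 to 22912168 counts per library, and the sex labels matched the data in 16 of 16 libraries. Over the 109 tested genes of the segment, taken as chr16:75540514-97962622, the median log2 difference of a library from the wild-type mean was 0.52 to 0.62 in 5xFAD-Dp16, 0.52 to 0.65 in Dp16, −0.01 to 0.04 in 5xFAD and −0.04 to 0.20 in wild-type. Thy1, whose promoter drives the transgenes, averaged 2002 ± 168 CPM in 5xFAD-Dp16, 888 ± 120 in Dp16, 1699 ± 200 in 5xFAD and 810 ± 62.8 in wild-type (SD, n = 4 each). App, the amyloid precursor gene inside the segment, averaged 1977 ± 277, 1867 ± 454, 1140 ± 172 and 1315 ± 413 CPM in the same order of groups. Markers of excitatory neurons summed to 1195 to 4707 CPM in every library. Choroid plexus markers, which belong to tissue next to the cortex, summed to 14.2 to 2318 CPM in 5xFAD-Dp16, 10.02 to 1289 in Dp16, 19.1 to 634 in 5xFAD and 14.2 to 321 in wild-type. All 8 of them lay above 0 in the pooled Dp16 difference (median log2 fold change 1.74, 0 called by edgeR or DESeq2, 5 at an unadjusted p under 0.05), and their part in the results below was not tested. Wild-type replicate 3 stood apart by the slope of its expression on gene length (−0.439), followed by Dp16 replicates 4 (−0.181) and 3 (−0.171).

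The description as genes that follow Dp16 status held library by library for 2 of the 7. Nonagouti and Selenov were higher in all 8 Dp16-carrying libraries than in any of the other 8, a separation shown by 24 of 17555 genes in either direction (0.137%). Cbs did not separate, since wild-type replicate 3 fell among the Dp16-carrying libraries. For Myoc, Emb and Tbxas1 the Dp16-carrying and other libraries did not overlap on the 5xFAD background, as in 3.21% of genes. They overlapped without 5xFAD, where 1.56% of genes did not. The difference between backgrounds was not called for Myoc, Emb or Tbxas1 (edgeR adjusted p = 1.00 each). Gm49041 differed in opposite directions on the 2 backgrounds. In the pooled Dp16 difference, edgeR called 17 genes (0.0968%), 15 of them higher (0.0854%) and 2 lower (0.0114%), and leaving out 1 library gave 4 to 50 calls, 4 without 5xFAD-Dp16 replicate 3 and 50 without wild-type replicate 3. Of the 17, 13 lay in the segment and 4 outside it were nonagouti, Selenov, Cbs and Myoc, a count that nothing is read from, since the genes were chosen on this difference. Outside the segment and the 7 genes, the gene of smallest p was Cort, encoding cortistatin, with a log2 fold change of 0.87 ± 0.17 and 12.6 to 20.9 CPM in Dp16-carrying against 5.94 to 14.6 CPM in other libraries.

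**Figure D1:**
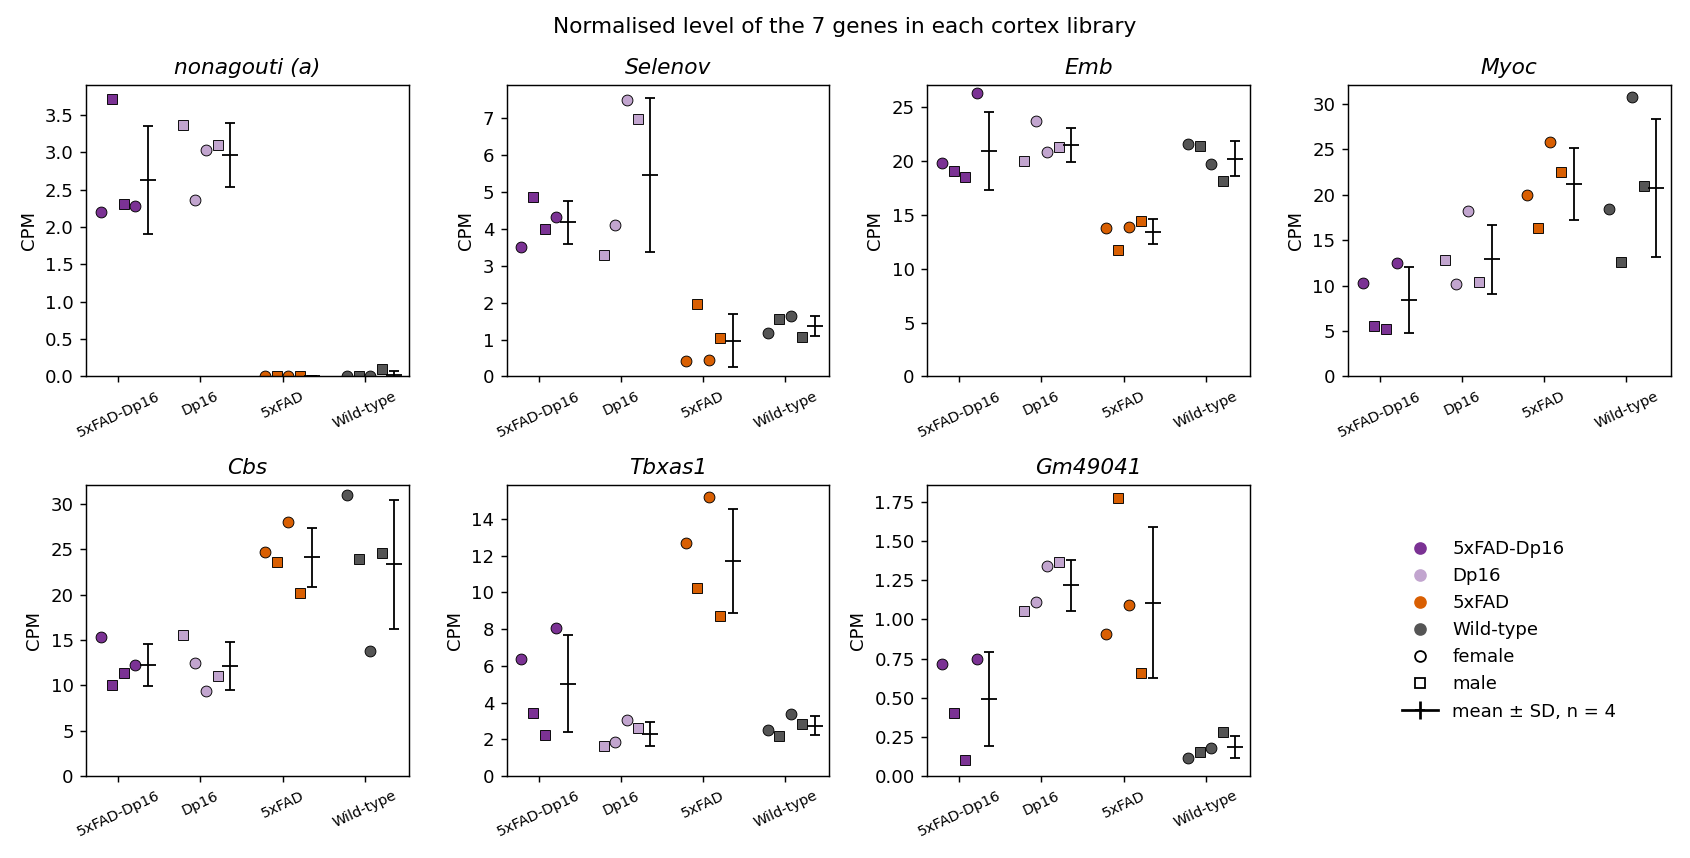
TMM-normalized CPM (vertical axes, linear, from 0) of each of the 7 genes in the 16 libraries, by group, with circles for females, squares for males and bars for the mean ± SD of 4 libraries. Nonagouti lies at 2.20 to 3.71 CPM in Dp16-carrying libraries and at 0 to 0.0940 CPM in the others, while Gm49041 is lowest in wild-type.

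Of the secreted proteins, nonagouti was counted in all 8 Dp16-carrying libraries and in 1 of the other 8. It had 49, 83, 45 and 46 counts in 5xFAD-Dp16 libraries and 77, 49, 61 and 68 counts in Dp16 libraries, against 0 counts in each 5xFAD library and 0, 0, 0 and 2 counts in wild-type libraries. In normalised terms these were 2.63 ± 0.726 CPM in 5xFAD-Dp16, 2.96 ± 0.428 in Dp16, 0 in 5xFAD and 0.0235 ± 0.0470 in wild-type (SD, n = 4 each). No library of one kind came near the other.

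Summed over libraries, 478 counts in Dp16-carrying and 2 in other libraries gave a depth-scaled ratio of 227 (95% Poisson interval 62.4 to 1877). In 5xFAD-Dp16 against 5xFAD, 223 counts stood against 0, and the 95% Poisson interval of the ratio had its lower limit at 61.9. Setting the 5xFAD group to a floor of 3 counts would give a ratio of 76.8, which is not a lower limit. In Dp16 against wild-type the ratio was 110 (30.3 to 917), from 255 counts against 2. These intervals cover counting error only, not the spread between mice, and describe the difference on which nonagouti was chosen. The 5xFAD genotype made no detectable difference among Dp16-carrying libraries, with a log2 fold change of −0.18 ± 0.38 in 5xFAD-Dp16 over Dp16 (edgeR adjusted p = 0.980) and values from −0.33 to −0.06 over 26 alternatives.

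The genes around nonagouti were close to 0 in the same difference. The 10 nearest tested genes, 5 on each side, had pooled Dp16 log2 fold changes of −0.01 to 0.09, among them Eif2s2, a translation initiation factor subunit that overlaps nonagouti (0.00), and Ahcy, which hydrolyses S-adenosylhomocysteine (0.04). Vectors used to engineer mouse chromosomes can carry a coat-colour gene, agouti or tyrosinase, and parts of Hprt, and the deposited counts do not tell a vector copy from the gene at its own locus. Hprt averaged 202 ± 49.0 CPM in 5xFAD-Dp16, 280.3 ± 99.3 in Dp16, 177 ± 50.5 in 5xFAD and 282 ± 194 in wild-type, a pooled Dp16 log2 fold change of 0.09 ± 0.27 (edgeR adjusted p = 1.00). Tyr was too low to test, with 6 counts in 5xFAD-Dp16, 22 in Dp16, 3 in 5xFAD and 7 in wild-type over 4 libraries each.

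Melanocyte markers, read as a check on pigment cells, were low in all groups. The 5 melanocyte markers summed to 0.617 to 2.06 CPM in 5xFAD-Dp16, 0.794 to 1.64 in Dp16, 0.834 to 1.68 in 5xFAD and 0.982 to 1.22 in wild-type, with Mlana at 0 in 15 libraries and Tyrp1 in 12. Dct had 6 to 26 counts and Pmel 3 to 25 counts in every library, and the part of such cells in the nonagouti counts was not tested. Of 18 melanocortin and pigment genes, 11 were tested and 0 were called in the pooled Dp16 difference by edgeR or DESeq2, with 0 at an unadjusted p under 0.05 and a median log2 fold change of −0.09 beside −0.02 over all genes. The 2 of smallest p were Pomc, the precursor of the melanocortins (−0.93 ± 0.52, edgeR adjusted p = 1.00), and Dct, a melanin enzyme (−0.44 ± 0.30, edgeR adjusted p = 1.00).

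Myoc, the other secreted protein, was lowest where both genotypes were present. Its CPM values were 10.3, 5.55, 5.19 and 12.5 in 5xFAD-Dp16, 12.8, 10.1, 18.2 and 10.4 in Dp16, 20.006, 16.4, 25.8 and 22.5 in 5xFAD, and 18.5, 12.6, 30.8 and 21.0 in wild-type. The 5xFAD-Dp16 and 5xFAD libraries did not overlap, as in 3.21% of genes, whereas those of Dp16 and wild-type did. The log2 fold change was −1.41 ± 0.26 in 5xFAD-Dp16 over 5xFAD, −0.66 ± 0.25 in Dp16 over wild-type and −1.03 ± 0.18 in the pooled difference. Leaving out any library, or changing the model, kept the pooled value between −1.11 and −0.87.

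For Myoc, the 5xFAD differences and the interaction gave no call. They share libraries with the Dp16 differences on which Myoc was chosen, and the interaction is made of those differences. They are thus not independent of the choice. The 5xFAD difference was −0.68 ± 0.26 in 5xFAD-Dp16 over Dp16 (edgeR adjusted p = 0.818) and 0.06 ± 0.25 in 5xFAD over wild-type (adjusted p = 0.995), and the interaction of the genotypes was −0.74 ± 0.36 (adjusted p = 1.00). In 5xFAD-Dp16, the 2 females had 10.3 and 12.5 CPM and the 2 males 5.19 and 5.55, yet over all 16 libraries the female over male difference of 0.53 ± 0.18 was not called (adjusted p = 1.00).

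Myoc is known from surface astrocytes, and markers of these and of the overlying meninges were read beside it. In the pooled Dp16 difference 9 of 10 meningeal fibroblast markers lay below 0 (median −0.19, 0 called by edgeR or DESeq2, 0 at an unadjusted p under 0.05), with sums of 24.5 to 46.5 CPM in 5xFAD-Dp16, 40.8 to 53.1 in Dp16, 30.5 to 63.5 in 5xFAD and 27.9 to 69.4 in wild-type. The 5 markers of surface astrocytes all lay below 0 (median −0.21, 0 called by edgeR or DESeq2, 2 at an unadjusted p under 0.05), with sums of 837 to 1964 CPM in 5xFAD-Dp16, 380 to 764 in Dp16, 1713 to 2685 in 5xFAD and 376 to 478 in wild-type. Gfap made up most of these surface astrocyte sums. It averaged 1212 CPM in 5xFAD-Dp16, 303 in Dp16, 1863 in 5xFAD and 222 in wild-type. Agt, another of the 5, averaged 12.1, 10.7, 15.8 and 22.4 CPM in the same order of groups. In 5xFAD over wild-type 4 of the 5 lay above 0 and 1 below, so the sums do not stand for each marker. The part of either marker set in the Myoc difference was not tested. In bulk tissue, fewer cells of a type and less RNA per cell cannot be told apart. Of 12 other olfactomedin-domain genes, all tested, 0 were called for Dp16 by edgeR or DESeq2 (median −0.11, 1 at an unadjusted p under 0.05), and Olfml3, a secreted protein of microglia, was called higher in 5xFAD than in wild-type (1.42 ± 0.30, edgeR adjusted p = 0.0216).

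Of the enzymes and redox proteins, Selenov was higher in Dp16-carrying libraries on both backgrounds. Its CPM values were 3.50, 4.88, 4.01 and 4.32 in 5xFAD-Dp16 and 3.28, 4.10, 7.49 and 6.97 in Dp16, against 0.429, 1.97, 0.437 and 1.05 in 5xFAD and 1.18, 1.55, 1.63 and 1.08 in wild-type. The lowest Dp16-carrying library lay above the highest of the others. The log2 fold change was 2.17 ± 0.42 in 5xFAD-Dp16 over 5xFAD, 2.02 ± 0.41 in Dp16 over wild-type and 2.09 ± 0.29 pooled, or 4.26-fold, with the counts low throughout at 9 to 153 per library. The pooled value ran from 1.33 to 2.35 over 25 alternatives. The lowest of these came from limma-trend on log2(RPKM + 1), a scale on which the added constant understates the change of a low gene.

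Selenov showed no difference with 5xFAD or sex that passed the test. The log2 fold change was −0.40 ± 0.38 in 5xFAD-Dp16 over Dp16 (edgeR adjusted p = 0.980) and −0.55 ± 0.43 in 5xFAD over wild-type (adjusted p = 0.954), and the interaction was 0.15 ± 0.56 (adjusted p = 1.00). The 2 highest libraries, Dp16 replicates 3 and 4, are also the 2 Dp16 libraries of lowest length slope. Without them and wild-type replicate 3 the pooled value was 1.93 ± 0.30. Of 23 other selenoprotein genes 21 were tested and 0 were called for Dp16 by edgeR or DESeq2, with 0 at an unadjusted p under 0.05, a median of 0.00 and a range of −0.19 to 0.16. Neighbours within 5 genes of Selenov lay between −0.41 and 0.39, with Dll3, a Notch ligand, at 0.39 and Eid2b, an inhibitor of differentiation, at 0.15.

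Cbs was lower where Dp16 was present, on both backgrounds. Its CPM values were 15.4, 10.02, 11.4 and 12.3 in 5xFAD-Dp16 and 15.6, 12.4, 9.33 and 11.1 in Dp16, against 24.7, 23.6, 28.0 and 20.1 in 5xFAD and 31.0, 23.9, 13.8 and 24.6 in wild-type. Wild-type replicate 3, at 13.8 CPM, fell among the Dp16-carrying libraries. Without it the ranges were 9.33 to 15.6 CPM in 8 Dp16-carrying libraries and 20.1 to 31.0 CPM in 7 others. That library was left out with its Cbs value known, and how many genes separate without it was not counted. The log2 fold change was −0.98 ± 0.23 in 5xFAD-Dp16 over 5xFAD, −0.94 ± 0.23 in Dp16 over wild-type and −0.96 ± 0.16 pooled, or a ratio of 0.514.

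With 5xFAD, Cbs showed no difference that passed the test. The log2 fold change was 0.01 ± 0.23 in 5xFAD-Dp16 over Dp16 (edgeR adjusted p = 0.996) and 0.04 ± 0.23 in 5xFAD over wild-type (adjusted p = 0.998), with an interaction of −0.03 ± 0.33 (adjusted p = 1.00). Astrocyte markers, of the cells that hold most Cbs in brain, lay below 0 in 8 of 8 cases in the pooled Dp16 difference (median −0.24, 0 called by edgeR or DESeq2, 3 at an unadjusted p under 0.05). Adding the length slope to the model, 2 of them, Gja1 and Fgfr3, passed. Their sums were 5512 to 6305 CPM in 5xFAD-Dp16, 5000 to 5681 in Dp16, 6069 to 8183 in 5xFAD and 4829 to 6643 in wild-type, and their part in the Cbs difference was not tested.

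Other genes of the Cbs pathway and its chromosomal surroundings gave 0 calls by edgeR, beside 0.0968% of all genes. Of 23 methionine cycle and transsulfuration genes 20 were tested and 0 were called for Dp16 by edgeR or DESeq2, with 1 whose unadjusted p was under 0.05, a median of 0.00, 10 above 0 and 10 below. The 2 of smallest p were Cdo1, cysteine dioxygenase (0.41 ± 0.11, edgeR adjusted p = 0.515, called with the length slope as a covariate), and Mtr, methionine synthase (0.28 ± 0.19, adjusted p = 1.00). Of 18 chromosome 17 genes whose human orthologs lie on chromosome 21, as that of Cbs does, 11 were tested and 0 were called by edgeR or DESeq2 (median −0.02, 1 at an unadjusted p under 0.05). Among them Hsf2bp, a meiotic recombination factor 4 tested genes from Cbs, stood at −2.03 ± 0.67 (adjusted p = 0.808) on very low levels of 0.0705 CPM in 5xFAD-Dp16, 0.226 in Dp16, 0.448 in 5xFAD and 0.638 in wild-type. The next genes on either side, Pknox1, a homeobox factor, and U2af1, a splicing factor, stood at −0.24 and −0.11, and the 10 nearest tested genes had a median of −0.28, with 7 below 0.

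Tbxas1 was highest in 5xFAD and lower where the duplication accompanied the transgenes. Its CPM values were 6.37, 3.45, 2.26 and 8.05 in 5xFAD-Dp16, 1.62, 1.88, 3.08 and 2.60 in Dp16, 12.7, 10.3, 15.2 and 8.74 in 5xFAD, and 2.53, 2.17, 3.38 and 2.87 in wild-type. The 5xFAD libraries lay above all others, and how many genes separate in this way was not counted. The 5xFAD libraries did not overlap those of wild-type in 5.19% of genes, nor those of 5xFAD-Dp16 in 3.21%. The second of these differences is among those on which Tbxas1 was chosen. All 5xFAD-carrying libraries together overlapped the others, unlike in 0.826% of genes. Libraries of Dp16 and wild-type overlapped. The Dp16 log2 fold change was −1.29 ± 0.27 in 5xFAD-Dp16 over 5xFAD and −0.26 ± 0.29 in Dp16 over wild-type, and the second was −0.65 ± 0.36 without the 3 libraries of lowest length slope.

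Tbxas1 rose in 5xFAD over wild-type. The log2 fold change was 2.07 ± 0.28 in 5xFAD over wild-type (edgeR adjusted p = 0.000923), where 264 of the tested genes rose (1.5%), and it was called in all 26 alternatives with adjusted p from 8.3e-10 to 0.00938. Over both backgrounds it was 1.55 ± 0.20 (adjusted p = 0.000266), 1 of 383 genes called (2.18%), all higher. The first of these comparisons shares its 5xFAD libraries with the Dp16 difference on that background, and the second, over all 16 libraries, is balanced against Dp16. In 5xFAD-Dp16 over Dp16 it was 1.04 ± 0.28 and did not pass (adjusted p = 0.237); it passed in 1 of 26 alternatives, the one that adds the length slope to the model (0.0383). The test of the difference between the 2 backgrounds did not pass (interaction −1.03 ± 0.39, adjusted p = 1.00). That test is made of the Dp16 differences and so is not independent of the choice of Tbxas1.

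Microglial markers moved with Tbxas1. Of 10 such markers 7 rose in 5xFAD over wild-type, among them C1qa, a complement subunit (1.80 ± 0.17, edgeR adjusted p = 7.56e-05). Their sums were 843 to 1660 CPM in 5xFAD-Dp16, 555 to 635 in Dp16, 1598 to 2293 in 5xFAD and 572 to 757 in wild-type, and in the pooled Dp16 difference 10 of 10 lay below 0 (median −0.39, 0 called by edgeR or DESeq2, 8 at an unadjusted p under 0.05, and Sall1 called with the length slope as a covariate). As a share of that sum, Tbxas1 amounted to 0.268 to 0.587% in 5xFAD-Dp16, 0.292 to 0.543% in Dp16, 0.547 to 0.667% in 5xFAD and 0.380 to 0.446% in wild-type. The share was thus higher in every 5xFAD library than in any wild-type library, while those of 5xFAD-Dp16 and Dp16 overlapped. Their part in the Tbxas1 difference was not tested.

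Of 21 other prostanoid genes 18 were tested and 0 were called for Dp16 by edgeR or DESeq2 (median −0.06, 2 at an unadjusted p under 0.05). In 5xFAD over wild-type 2 rose, Hpgds, the haematopoietic prostaglandin D synthase (1.41 ± 0.29, edgeR adjusted p = 0.0170), and Alox5, the 5-lipoxygenase of leukotriene synthesis (2.56 ± 0.60, adjusted p = 0.0473). Hpgds averaged 8.97 ± 3.44 CPM in 5xFAD-Dp16, 5.09 ± 1.07 in Dp16, 17.5 ± 2.43 in 5xFAD and 6.52 ± 2.35 in wild-type, the same order of groups as Tbxas1. Sex differences of Tbxas1 were visible but not called: 6.37 and 8.05 CPM in female against 2.26 and 3.45 in male 5xFAD-Dp16, 12.7 and 15.2 in female against 8.74 and 10.3 in male 5xFAD, and 0.60 ± 0.20 over all libraries (edgeR adjusted p = 1.00), where 0.0456% of genes were called.

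**Figure D2:**
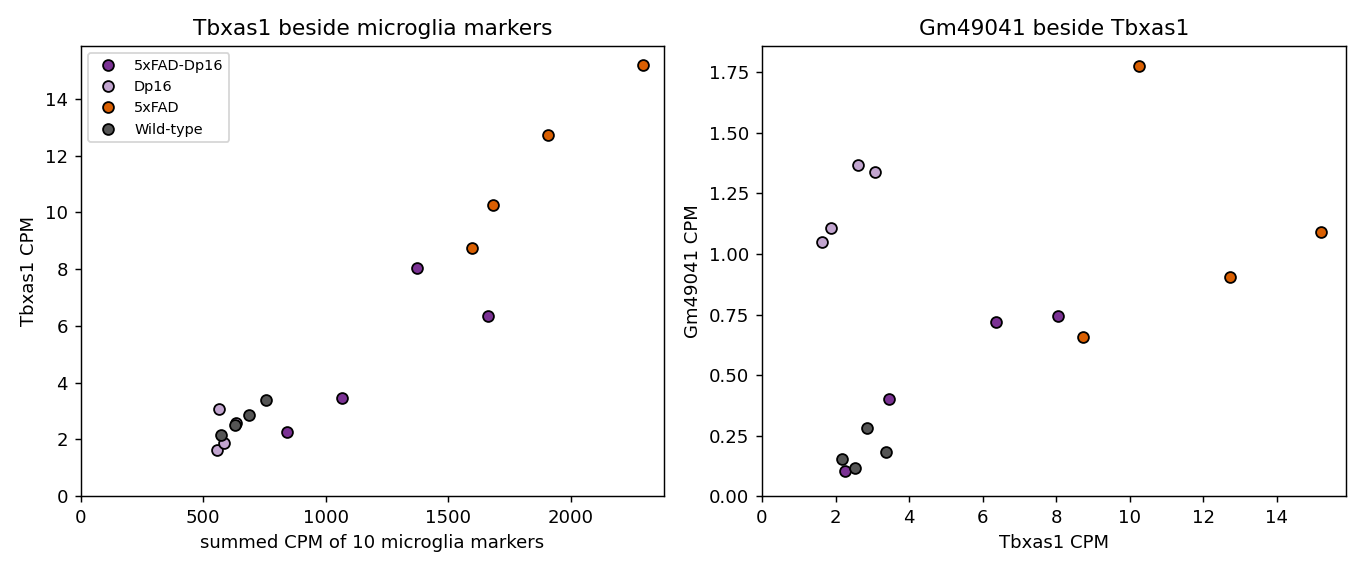
Left, Tbxas1 CPM against the summed CPM of 10 microglia markers, and right, Gm49041 CPM against Tbxas1 CPM, 1 point per library, coloured by group, on linear axes from 0. Tbxas1 and the markers are both highest in 5xFAD, whereas Dp16 libraries have 1.05 to 1.37 CPM of Gm49041 at 1.62 to 3.08 CPM of Tbxas1.

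The membrane protein gene Emb had its lowest level in 5xFAD libraries. Its CPM values were 19.8, 19.1, 18.6 and 26.3 in 5xFAD-Dp16, 19.9995, 23.8, 20.8 and 21.3 in Dp16, 13.8, 11.7, 13.9 and 14.4 in 5xFAD, and 21.6, 21.4, 19.7 and 18.1 in wild-type. All 4 5xFAD libraries lay below all 12 others, which overlapped. How many genes separate in this way was not counted. The 5xFAD libraries did not overlap those of wild-type in 5.19% of genes, nor those of 5xFAD-Dp16 in 3.21%. The second of these differences is among those on which Emb was chosen. The Dp16 log2 fold change was 0.63 ± 0.14 in 5xFAD-Dp16 over 5xFAD and 0.09 ± 0.14 in Dp16 over wild-type.

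Emb fell in 5xFAD against wild-type by 0.59 ± 0.14 on the log2 scale (edgeR adjusted p = 0.0440), 1 of 2 genes lower in that comparison (0.0114%). The call was lost in 19 of 26 alternatives, 14 of them among the 16 that leave out a library, and held without wild-type replicate 3 or 5xFAD-Dp16 replicate 4. Adjusted p ran from 0.00227 to 0.428. In 5xFAD-Dp16 over Dp16 the change was −0.04 ± 0.14 (adjusted p = 0.983). The interaction was 0.55 ± 0.19, with an unadjusted p of 0.0121 and an edgeR adjusted p of 1.00. The 5xFAD comparison shares its 5xFAD libraries with the Dp16 difference that led to the choice of Emb, and the interaction contains that difference whole. Of the 6 other genes of the basigin and monocarboxylate transporter group 0 were called for Dp16 by edgeR or DESeq2, with 0 at an unadjusted p under 0.05, and Nptn, neuroplastin, a basigin relative, stood at −0.33 ± 0.12 in 5xFAD over wild-type (adjusted p = 0.425).

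The noncoding Gm49041 was higher in Dp16 and in 5xFAD than in wild-type, and lower in 5xFAD-Dp16 than in Dp16. Its CPM values were 0.718, 0.403, 0.103 and 0.745 in 5xFAD-Dp16, 1.05, 1.11, 1.34 and 1.37 in Dp16, 0.905, 1.78, 1.09 and 0.658 in 5xFAD, and 0.118, 0.155, 0.181 and 0.282 in wild-type. All values rest on 2 to 36 counts per library. The Dp16 log2 fold change was −1.19 ± 0.50 in 5xFAD-Dp16 over 5xFAD, where the libraries overlapped, and 2.66 ± 0.55 in Dp16 over wild-type, where they did not, as in 1.56% of genes. The pooled value of 0.73 ± 0.37 averages opposite signs, so Gm49041 did not follow Dp16 status.

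Gm49041 rose in 5xFAD over wild-type by 2.53 ± 0.55 on the log2 scale (edgeR adjusted p = 0.0292), with no overlap between the groups, as in 5.19% of genes. The call was lost in 8 of 26 alternatives, among them leaving out wild-type replicate 1, 2 or 3 or 5xFAD replicate 2 or 3 (adjusted p up to 0.129). In 5xFAD-Dp16 over Dp16 the value was −1.32 ± 0.50, with no overlap, as in 3.09% of genes, and it was not called (adjusted p = 0.818). The interaction was −3.85 ± 0.75, unadjusted p = 0.000107, and edgeR adjusted p = 1.00; DESeq2 gave 0.0196 and edgeR without the low-count filter 0.0146. Gm49041 was chosen on differences between Dp16-carrying and other libraries. With the Dp16 over wild-type difference, the test of 5xFAD over wild-type shares the wild-type libraries. That of 5xFAD-Dp16 over Dp16 shares its Dp16 libraries, and the interaction contains that difference whole. These tests are thus not independent of the choice.

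Kdm7a, the histone demethylase gene whose start faces that of Gm49041, was at about the same level in the 4 groups. Its pooled Dp16 log2 fold change was 0.06 ± 0.11, and it averaged 41.4 ± 4.59 CPM in 5xFAD-Dp16, 37.4 ± 2.59 in Dp16, 35.9 ± 3.66 in 5xFAD and 39.9 ± 7.89 in wild-type. Slc37a3, a sugar phosphate exchanger on the other side, stood at 0.04. Tbxas1 and Gm49041, neighbours on chromosome 6, had different orders of groups, with Gm49041 high and Tbxas1 low in Dp16. Once group and sex means were removed, their log2 CPM correlated at r = 0.82 over the 16 libraries, a description of points that share libraries and depth. Parp12, a mono-ADP-ribosyltransferase that lies between them, rose in 5xFAD over wild-type (0.99 ± 0.18, edgeR adjusted p = 0.00777).

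**Figure D3:**
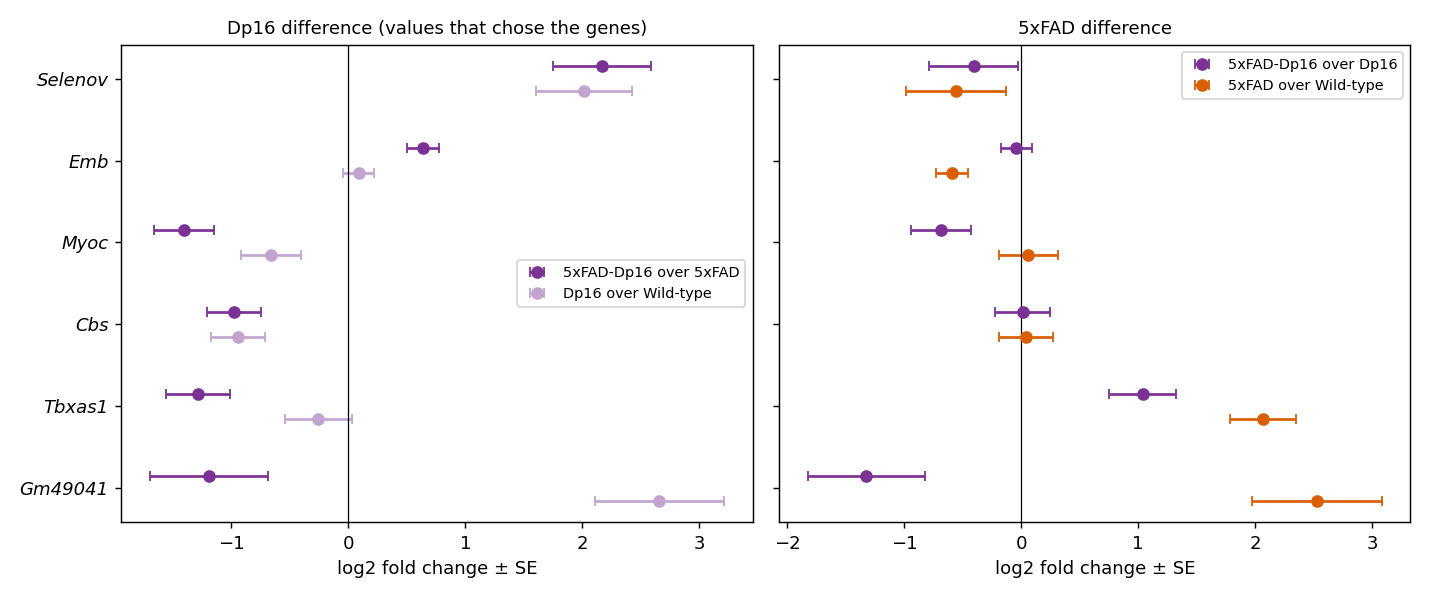
Log2 fold change ± SE of 6 of the 7 genes for Dp16 (left, the values that chose them) and for 5xFAD (right), on each background, from 4 libraries a group. Selenov and Cbs have about the same Dp16 difference on both backgrounds, at 2.17 and 2.02 and at −0.98 and −0.94, whereas Gm49041 changes sign. Nonagouti is not plotted, since a fold change fitted against libraries at or near 0 counts depends on the prior count.

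Across the 7 loci no neighbouring gene was called in the pooled Dp16 difference by the test used throughout. The 63 distinct tested genes within 5 places of any of the 7 had pooled Dp16 log2 fold changes of −2.03 to 1.08 with a median of 0.00, and edgeR called 0 of them, beside 0.0968% of all genes. DESeq2 also called 0, and 5 had an unadjusted p under 0.05. In the duplicated segment edgeR called 13 of 109 tested genes. The 0 calls here and in the gene lists above therefore do not show that those genes were unchanged. When the model included the length slope 2 passed, Fbl near Selenov and Prrx1 near Myoc, both named after their values were seen. The nearest ones not yet named were Vamp4 (0.13) and Prrc2c (−0.05) for Myoc, Gm17509 (−0.03) and Gm6421 (0.15) for Emb, and Hipk2 (−0.25) and Parp12 (−0.04) for Tbxas1. The extremes were Hsf2bp near Cbs and Gm15697 near Tbxas1.

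**Figure D4:**
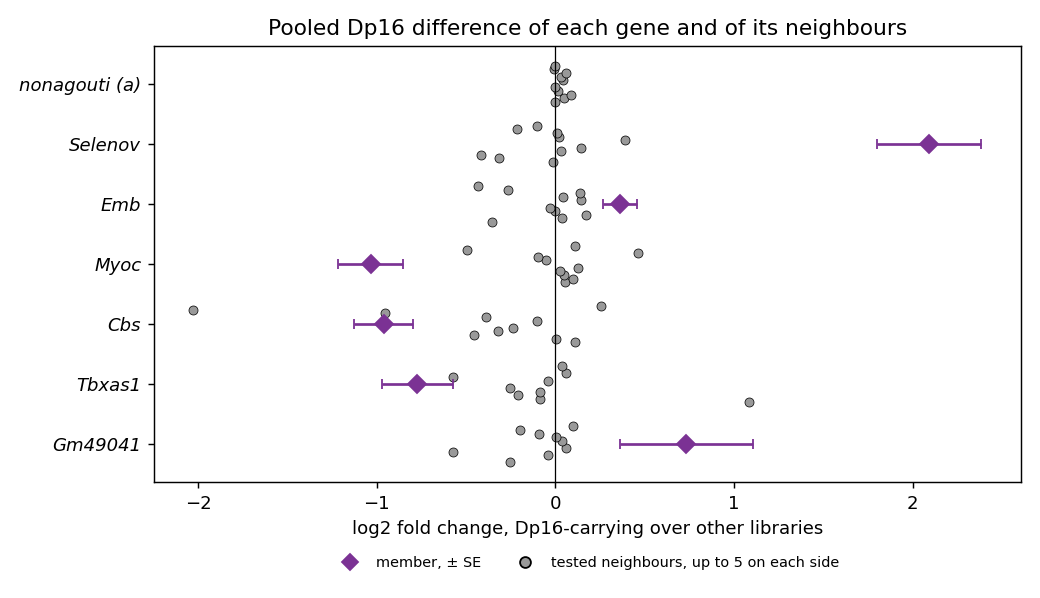
Pooled Dp16 log2 fold change (Dp16-carrying over other libraries) of each gene, as a diamond ± SE, and of up to 5 tested genes on each side, as grey points. The neighbours of nonagouti lie within −0.01 to 0.09 and those of Selenov within −0.41 to 0.39, while Selenov itself is at 2.09. The fitted value of nonagouti, against libraries at or near 0 counts, is not plotted.

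Levels of the genes are comparable with each other only per length. In Dp16, mean RPKM was in the order Emb at 7.31, Myoc at 6.13, Selenov at 4.24, nonagouti at 3.61, Gm49041 at 2.21, Cbs at 1.93 and Tbxas1 at 0.728. Nonagouti thus stood above Cbs per length in Dp16 cortex, at 2.95 to 4.26 RPKM against 1.40 to 2.57 RPKM. In wild-type, mean RPKM was 9.56 for Myoc, 6.76 for Emb, 3.69 for Cbs, 1.04 for Selenov, 0.853 for Tbxas1, 0.331 for Gm49041 and 0.0294 for nonagouti, and in that order only Myoc and Emb, and Selenov and Tbxas1, overlapped between libraries.

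The genes most like each of the 7 were found by Pearson correlation of log2 CPM over the 16 libraries, which share group, sex and depth. The 7 were chosen on their Dp16 differences, and genes of the segment differ with Dp16 too. Nothing is therefore read from which of the like genes lie in the segment. For nonagouti they were Brwd1 (0.94), Ttc3 (0.93) and Gart (0.92), for Selenov Mrpl39 (0.93), Cfap298 (0.93) and Cct8 (0.91), and for Cbs Mrpl39 (−0.95), Cct8 (−0.94) and Brwd1 (−0.94), all of them in the duplicated segment. Myoc was closest to Dyrk1a (−0.86), BC037032 (−0.85) and Ttc3 (−0.84), of which Dyrk1a and Ttc3 are in the segment. Among the genes closest to Tbxas1 were Hpgds (0.95) and Cnn3 (0.95). Emb was closest to March8 (−0.88), Gpr45 (0.81) and Slc25a18 (−0.81), and Gm49041 to Hook2 (0.88), Tgif2 (0.80) and Gm49320 (0.79), none of them in the segment.

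Within groups, other genes came first. Here and above, the genes shown are the closest of 17555 over 16 libraries, a choice that by itself gives high values. Nonagouti had at most 2 counts in any library without Dp16, so its residuals rest mainly on the Dp16-carrying libraries. Over residuals from group means and sex, Cbs was closest to Ednrb, the endothelin B receptor (0.99), Creb3l1 (0.97) and Coq3 (−0.97), and Selenov to Dffb (0.96), Rev1 (0.93) and Ankzf1 (0.92). Tbxas1 was closest to Lpl (0.89), Ccl6 (0.87) and Sstr2 (−0.86), and Myoc to Chtf8 (−0.92), Rars (−0.90) and Zfr (−0.89). Emb was closest to Fmo1 (0.88), March5 (−0.86) and Tmprss9 (0.85), Gm49041 to Gm4890 (0.92), Elovl6 (−0.86) and Was (0.85), and nonagouti to Rexo5 (−0.85), Gm28836 (−0.85) and Fam169b (−0.80). Nonagouti and Selenov correlated at 0.88 over levels but at −0.27 over residuals, and Selenov and Cbs at −0.88 and −0.55.

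For the 6 genes with a fitted value, no change of the Dp16 difference with sex was detected. The difference of the pooled Dp16 effect between females and males was 0.84 ± 0.48 for Selenov, 1.16 ± 0.72 for Gm49041, 0.39 ± 0.36 for Tbxas1, 0.30 ± 0.36 for Myoc, 0.13 ± 0.21 for Emb and −0.04 ± 0.33 for Cbs on the log2 scale. None of these was called, and in this comparison edgeR and DESeq2 called 0 genes, while 268 had an unadjusted p under 0.05. The interaction of Dp16 and 5xFAD likewise gave 0 calls by edgeR and 3 by DESeq2, and 239 genes had an unadjusted p under 0.05.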

How the data were processed

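Polyadenylated RNA of cortex from 16 mice was measured, in 4 groups of 4. The authors deposited raw read counts per gene, without normalization, and RPKM values, which are those counts scaled by gene length and library total. Per the labels' protocols, RNA was extracted with TRIzol and strand-specific libraries were prepared using a Universal Plus mRNA kit (Tecan/Nugen). Per the submitters' processing notes, the tools included HISAT2 2.1.0, HTSeq 0.6.1 and SAMtools 1.5, and the build was GRCm38, and the title of the deposited tables names GENCODE M24. The settings, and whether counting used strand, are not given in the sources used here. Coordinates come from GENCODE M21 on the same build, by identifier without version, and 241 of 55385 genes had none.

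Counts were fitted with edgeR 4.0.16 in R 4.3.3 (quasi-likelihood test, TMM, filterByExpr with a minimum count of 10, robust, sex as a covariate, all 16 libraries). It tested 17555 genes, with Benjamini-Hochberg adjustment over all of them and a threshold of 0.05. Levels are TMM-normalized CPM, and each log2 fold change is given ± its standard error. The script was tested on simulated data. Alternatives were DESeq2 1.42.0, a fit lacking the low-count filter, RLE size factors, a replicate block, a fit with sex left out, only the 8 libraries compared, each library left out in turn, limma-trend (limma 3.58.1) on RPKM, taken as log2 after adding 1 or 0.1, a gene length slope per library as covariate, and leaving out the 3 libraries of lowest slope, the last of these chosen after seeing the data. The slope comes from regressing, in each library, the deviation of log2 CPM on log2 gene length.

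The 7 genes and all gene lists were chosen with earlier results of these data known. Named besides the 7 genes were App and Thy1 as label checks, Hprt and Tyr, the nearest tested gene on each side, the listed genes of smallest p (up to 4 called, otherwise up to 2) and the 3 genes of highest correlation; Cort was named after its values were seen. Some genes that these rules select are not reported here. The labels name separate samples but no litters or cohorts, so p-values measure the spread between these samples. Poisson intervals and the floor of 3 counts cover counting error only.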

Additional observations from a re-analysis of the deposited data

Results flagged for a closer look

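Among the 28 groups of 4 libraries (7 genes in 4 groups), Dixon's criterion for a library far from the others, which chance alone meets in about 1 group in 20, was met in 3. Nonagouti in 5xFAD-Dp16 replicate 2 stood at 3.71 CPM, above 2.20 to 2.31 CPM in the other libraries of that group. Nonagouti in wild-type replicate 4 stood at 0.0940 CPM, from 2 counts, beside 0 counts in the other wild-type libraries. With the other 3 tied at 0, any value above 0 meets the criterion, so this group says nothing beside that chance rate. Emb in 5xFAD-Dp16 replicate 4 stood at 26.3 CPM, above 18.6 to 19.8 CPM in the others.

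Gm49041 differed with 5xFAD in opposite directions on the 2 backgrounds. All 4 5xFAD-Dp16 libraries lay below all 4 Dp16 libraries, and all 4 5xFAD libraries lay above all 4 wild-type libraries. In these pairs of groups 3.09% and 5.19% of genes did not overlap, in either direction. The test of the difference itself, the interaction of −3.85 ± 0.75, had an edgeR adjusted p of 1.00. Gm49041 was chosen on differences between Dp16-carrying and other libraries. These comparisons share libraries with those differences and so are not independent of that choice.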

How the results depend on the processing

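Of 1370 values of the 7 genes under the other settings, 1333 kept their direction and their side of the threshold or, where untested, moved by less than the spread between libraries, and no call or called value changed direction. The calls lost were those of Emb (19 settings) and Gm49041 (8 settings) in 5xFAD over wild-type, the second with adjusted p of 0.0583 with the replicate block, 0.0863 in the 8 libraries compared and 0.0906 without the 3 libraries of lowest slope. Calls gained were Emb in the pooled 5xFAD difference (adjusted p = 0.0438 by DESeq2, 0.0239 by edgeR with the slope), Tbxas1 in 5xFAD-Dp16 over Dp16 and the Gm49041 interaction. On log2(RPKM + 1) the Dp16 differences of Selenov were 1.33 pooled, 1.35 in 5xFAD-Dp16 over 5xFAD and 1.32 in Dp16 over wild-type, and that of Gm49041 in Dp16 over wild-type was 1.28. With 2 to 36 counts a library, Gm49041 is limited by depth.

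Counts of called genes moved more, and the cause was not tested. For Dp16 pooled the 17 calls (15 higher, 2 lower) became 56 with DESeq2 (39 and 17), 111 with no low-count filter (78 and 33), 180 with the slope (102 and 78) and 36 without the 3 libraries of lowest slope (30 and 6). With 1 library left out they were 4 to 50: 50 when wild-type replicate 3 was left out, 6 without wild-type replicate 2 or 4, 8 without Dp16 replicate 2, 11 without Dp16 replicate 3 or 4, 4 without 5xFAD-Dp16 replicate 3, 7 without 5xFAD-Dp16 replicate 1 or 2 or 5xFAD replicate 3, 10 without 5xFAD replicate 1 and 5 without 5xFAD replicate 2 or 4. For 5xFAD pooled the 383 calls (383 higher, 0 lower) became 643 with no filter (542 and 101) and 1052 with the slope (813 and 239), and were 317 to 452 with a library left out. For 5xFAD over wild-type the 266 calls (264 and 2) became 424 with DESeq2, 426 with no filter, 926 with the slope (700 and 226) and 115 in the 8 libraries compared. With a library left out they were 167 to 290, 167 without wild-type replicate 1 and 169 without its replicate 2. For 5xFAD-Dp16 over Dp16 the 68 calls (68 and 0) became 165 with DESeq2, 236 with no filter (211 and 25), 212 with the slope and 44 in the 8 libraries compared. With a library left out they were 22 to 127: 127 without wild-type replicate 3, 22, 33 and 42 without Dp16 replicates 2, 3 and 4, and 31 and 36 without 5xFAD-Dp16 replicates 1 and 4. The interaction's 0 calls became 3 with DESeq2 and 25 with no filter, and were 0 to 0 with a library left out. The 8 calls of female over male became 15 with DESeq2, 37 with no filter, 13 with the slope and 5 with the replicate block, and were 7 to 8 with a library left out. The change of the Dp16 difference with sex, at 0 calls, gave 15 with no filter and 0 to 1 with a library left out, 1 without Dp16 replicate 2. For it, limma-trend, the fit with no sex term and the replicate block were not run.

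The replicate numbers showed little pairing of the libraries. Over 24 same-numbered pairs, deviations from group means correlated at −0.354 to 0.514, with a median of 0.041. Over 72 differently numbered pairs the median was −0.024. Of 16 libraries, 7 correlated best with one of their own number. With the replicate block the counts were 14 for Dp16 pooled, 388 for 5xFAD pooled, 237 for 5xFAD over wild-type, 60 for 5xFAD-Dp16 over Dp16 and 0 for the interaction.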
